A study of Homo sapiens with 6 samples.

Results

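EGR1, EGR2, DUSP4, DUSP5, DUSP6, SPRY2, SPRY4, SPRED1, ETV4 and ETV5 are genes switched on by, or acting back on, the ERK branch of mitogen-activated protein kinase (MAPK) signalling. They were taken by symbol from the count and FPKM tables, which held all 10 among 23059 genes, and all 10 passed the filter on low counts that left 15173 genes for testing. The samples were cultures of HCC-LM3, a human hepatocellular carcinoma cell line with high metastatic potential. In 3 of them the cells received DMSO, the solvent control, and in the other 3 apigenin, a flavone found in many plants. Neither the dose nor the duration of treatment is given in the sources used here. The titles number the samples as biological replicates without saying whether they were separate cultures, so p-values measure the spread between these samples. The comparison asks how apigenin changed gene expression in these cells.

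Growth factor receptors pass their signal through RAS, RAF and MEK to the kinase ERK, which enters the nucleus and phosphorylates transcription factors. Early response genes such as EGR1 follow within a short time, and ERK activity also raises its own inhibitors: the dual-specificity phosphatases (DUSP), which dephosphorylate MAP kinases, and the Sprouty (SPRY) and SPRED proteins, which act on RAS and RAF. ETV4 and ETV5 are ETS transcription factors whose transcripts follow the same signal. Because these transcripts are short-lived, their levels are often read as a measure of ERK output.

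Apigenin was accompanied by opposite changes in the EGR factors. EGR1 fell by 27.3% and EGR2 rose 2.90-fold, while the other 8 genes did not pass the test. Among those 8, SPRY4 had an unadjusted p under 0.05 (0.0342), and DESeq2 called none of them either. An unadjusted p under 0.05 was common, in 3697 of the 15173 tested genes. Of the 10 genes, 1 rose and 1 fell at an adjusted p under 0.05 (edgeR's quasi-likelihood test, Benjamini-Hochberg adjustment over all tested genes), against 2.76% of all tested genes that rose and 4.22% that fell (6.99% in either direction). The median log2 fold change of the 10 was -0.04, beside 0.00 over all tested genes.

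The sequences upstream of EGR1 and EGR2 are shown because these were the genes that changed, in opposite directions, and both windows hold a CArG box, the site bound by serum response factor (SRF). They are the 250 bases before a RefSeq start site (GRCh38.p14), read 5′ to 3′ on the strand of the gene, and capitals mark CArG boxes. That of EGR1 is chr5:138465229-138465478 on the plus strand, and that of EGR2 is chr10:62816367-62816616 on the minus strand. Neither window overlaps a GENCODE 29 exon of its gene.
EGR1: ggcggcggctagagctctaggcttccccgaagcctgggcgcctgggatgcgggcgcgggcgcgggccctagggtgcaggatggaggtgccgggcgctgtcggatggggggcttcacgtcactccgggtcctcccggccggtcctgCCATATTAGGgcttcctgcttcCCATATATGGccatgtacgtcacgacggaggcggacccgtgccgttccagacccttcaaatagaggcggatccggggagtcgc
EGR2: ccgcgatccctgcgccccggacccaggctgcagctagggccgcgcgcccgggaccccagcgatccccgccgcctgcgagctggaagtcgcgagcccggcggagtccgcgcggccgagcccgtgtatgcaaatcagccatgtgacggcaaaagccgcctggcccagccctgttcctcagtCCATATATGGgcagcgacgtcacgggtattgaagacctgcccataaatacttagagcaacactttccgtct
The EGR1 window has CArG boxes at -105 to -96 and at -83 to -74, counted in bases from the start site. The EGR2 window has one at -71 to -62, and it shares the 10 letters CCATATATGG with the box of EGR1 nearer the start. A CArG box was found, on either strand, in 407 of 34943 promoter windows of this length (1.16%), and CCATATATGG itself in 9 (0.0258%). The letters CCATATATGG were searched because both genes hold them, so the count of 9 is a description only. EGR2 has 2 further listed start sites, whose windows hold no CArG box. Windows were listed for 6 of the 10 genes, and those of DUSP6, SPRY2, SPRY4 and SPRED1 hold none. The windows compared are unlike, since all 250 bases of those of DUSP6 and SPRED1 lie in GENCODE 29 exons of their gene. So do 170 bases of that of SPRY4. An EGR site (GCGNGGGCG, 8.39% of windows) was found in the windows of EGR1, SPRY2 and SPRY4, and the core letters read by the aryl hydrocarbon receptor (GCGTG, 32.2%) in that of DUSP6. The exact letters of the cAMP response element (TGACGTCA, 1.63%) and the AP-1 site (TGACTCA, 4.22%) were in none of the windows of the 6 genes. Shorter or altered forms of these sites were not searched, so their absence is not shown. Both strands were searched for each motif. These matches describe letters in the windows and not binding.

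Per gene length, DUSP6 and EGR1 were the most abundant of the 10 with DMSO, at 50.3 ± 0.611 and 46.5 ± 0.301 FPKM (mean ± SD, n = 3), followed by DUSP5 at 31.7 ± 1.35. DUSP4 (18.9 ± 0.869 FPKM), ETV4 (18.8 ± 0.532) and ETV5 (18.6 ± 0.731) came next and did not differ from one another beyond their spread. SPRED1 stood at 13.3 ± 0.313, SPRY2 at 3.79 ± 0.233 and SPRY4 at 3.11 ± 0.192. EGR2 was the lowest, at 0.355 ± 0.0651 FPKM. With apigenin EGR1 (33.8 ± 1.25 FPKM) and DUSP5 (34 ± 0.270) no longer differed beyond their spread, and EGR2 reached 1.03 ± 0.195 FPKM, still the lowest of the 10.

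**Figure D1:**
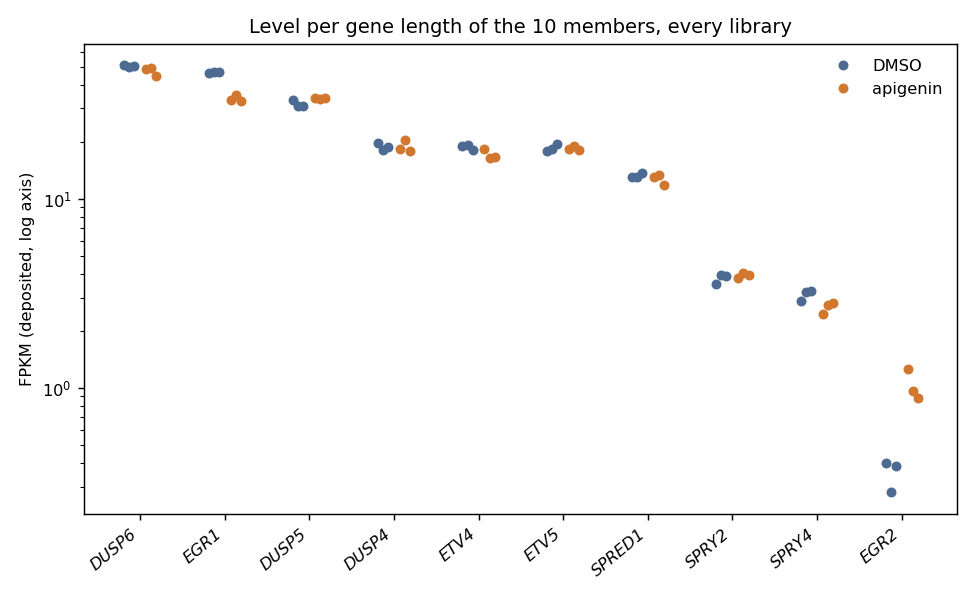
Deposited FPKM values (vertical log axis) of the 10 genes in each of the 6 libraries, ordered by their DMSO mean; blue points are DMSO and orange points apigenin. EGR1 drops from about the level of DUSP6 to that of DUSP5, and EGR2 rises from 0.355 to 1.03 FPKM but stays lowest.

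The transcription factor EGR1 (chromosome 5, 138465479 to 138469303) is a zinc finger protein and an early response gene of growth factor signalling. It had 145, 146 and 146 CPM (counts per library size, with TMM factors) in DMSO 1, 2 and 3, and 104, 109 and 105 CPM in apigenin 1, 2 and 3. The groups did not overlap, and each apigenin library was below each DMSO library by far more than replicates differed from each other. The log2 fold change was -0.46 ± 0.056 (SE; 95% interval -0.58 to -0.34; edgeR adjusted p = 2.97e-04), and the call held under all 16 other settings, with log2 fold changes of -0.50 to -0.45.

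EGR2 (chromosome 10, 62811996 to 62819167) encodes a related zinc finger factor, known for its part in the myelination of peripheral nerves and in T cell tolerance. Few reads carry its result: 47, 33 and 42 counts with DMSO and 134, 115 and 95 with apigenin. These are 1.26, 0.882 and 1.22 CPM with DMSO and 3.95, 3.0 and 2.83 CPM with apigenin, so that the lowest apigenin library was more than double the highest DMSO library. The log2 fold change was 1.54 ± 0.273 (95% interval 0.95 to 2.12; edgeR adjusted p = 0.00472). Of all tested genes, 0.257% were called higher by at least 2-fold, and EGR2 was among them. The call held under 15 of 16 other settings. It was lost with limma on log2(FPKM + 1) without a filter (log2 fold change 0.58, adjusted p = 0.064). The filtered limma settings kept EGR2 only through its apigenin libraries, since no DMSO library reached 0.5 FPKM. A filter of 1 CPM in 3 libraries also needed an apigenin library. Calls under these settings are therefore not independent of the rise. Without a filter, edgeR called EGR2 (adjusted p = 1.46e-05).

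The unequal change of both EGR genes can be restated as a ratio within each library. This ratio uses the same values as the 2 fold changes and adds no separate evidence. EGR1 had 115, 167 and 121 times the FPKM of EGR2 in DMSO 1, 2 and 3, and 26.4, 36.7 and 37.3 times in apigenin 1, 2 and 3. The log2 ratio of EGR1 to EGR2 in CPM went from 7.02 ± 0.285 to 5.03 ± 0.279, a difference of -1.99. An exact two-sided permutation test gave p = 0.1, the smallest that 3 samples against 3 can give (adjusted p = 0.167 over the 5 gene pairs compared in this way). The gene models of EGR1 and EGR2 differ in length by 18 nucleotides. Fold changes followed gene length in these libraries, and with that trend removed EGR1 stood at -0.50 and EGR2 at 1.5, both called.

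**Figure D2:**
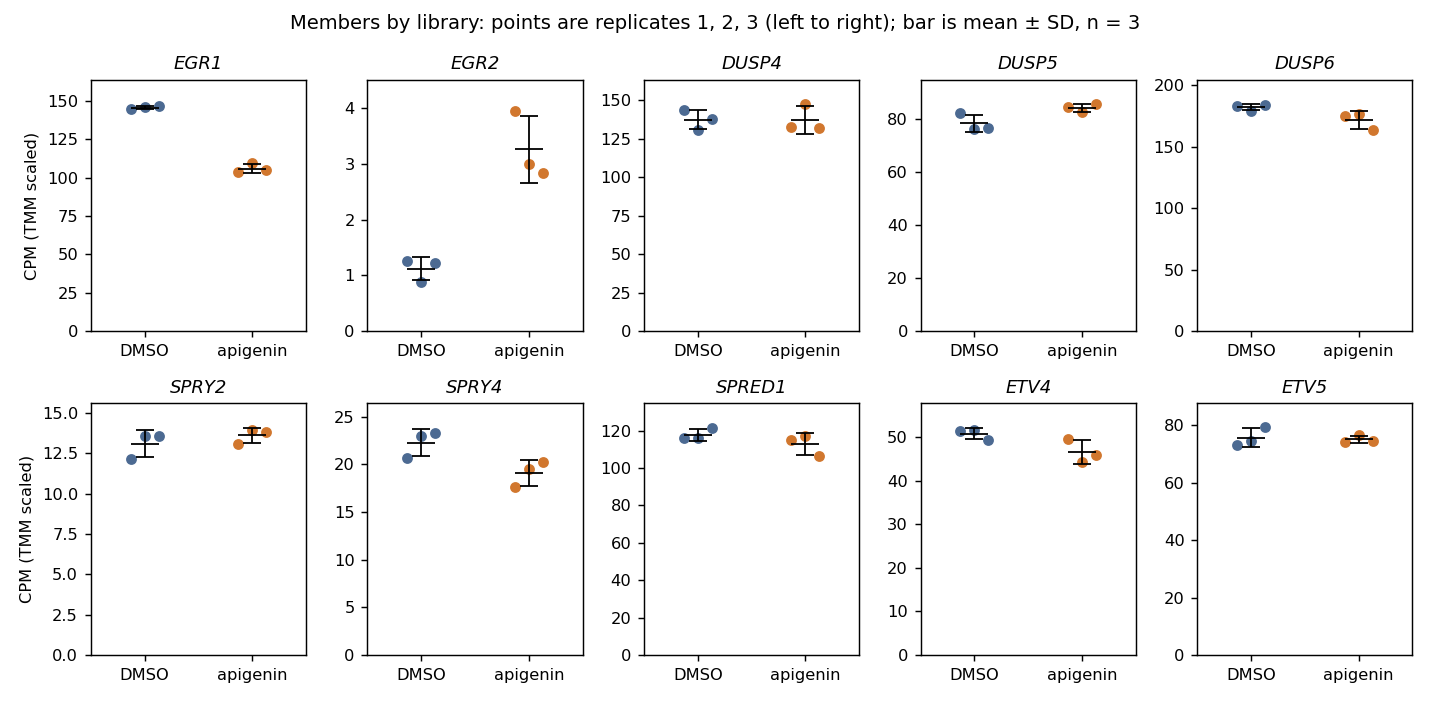
CPM (vertical axis, starting at 0, its range set for each gene) of the 10 genes in DMSO (blue) and apigenin (orange) libraries; points are replicates 1, 2 and 3 from left to right and bars the mean ± SD. EGR1 lies at 145 to 146 CPM with DMSO and at 104 to 109 with apigenin, EGR2 lies higher in each apigenin library, and the groups lie close together for the other 8 genes.

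Other genes around the EGR factors did not pass the test: of 3 tested, edgeR and DESeq2 called none and none had an unadjusted p under 0.05. NAB1 and NAB2 encode corepressors that bind EGR proteins, and NAB2 is itself a known EGR target. NAB1 had a log2 fold change of 0.09 ± 0.071 and NAB2 of 0.04 ± 0.076. EGR3 was near the limit of detection, at 0.238 ± 0.0544 CPM with DMSO and 0.411 ± 0.205 with apigenin. EGR4 was not analysed here.

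None of the DUSP genes among the 10 passed. DUSP6 (chromosome 12, 89347235 to 89352501), which encodes a cytoplasmic phosphatase selective for ERK, had 184, 179 and 184 CPM with DMSO and 175, 177 and 164 with apigenin. The groups did not overlap, but they lay closer than the test could call (log2 fold change -0.09 ± 0.056, 95% interval -0.21 to 0.03; edgeR adjusted p = 0.377). A readthrough gene, POC1B-DUSP6, spans the same locus. DUSP5 (chromosome 10, 110497907 to 110511533), which encodes a nuclear phosphatase of ERK, had 82.3, 76.5 and 76.8 CPM with DMSO and 84.5, 82.7 and 85.7 with apigenin, again without overlap (0.10 ± 0.061, -0.03 to 0.23; adjusted p = 0.337). DUSP4 (chromosome 8, 29333064 to 29350684), a nuclear phosphatase of ERK and of stress kinases, had 144, 131 and 138 CPM with DMSO and 133, 148 and 132 with apigenin. Its groups overlapped and its log2 fold change was 0.00 ± 0.064 (-0.14 to 0.13; adjusted p = 0.986), an interval that reaches down to 0.907 as a fold.

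Within libraries, DUSP5 stood higher relative to DUSP6 with apigenin. The ratio of their FPKM was 0.656, 0.625 and 0.611 with DMSO and 0.706, 0.685 and 0.766 with apigenin, without overlap (difference of the log2 ratio 0.19, exact two-sided permutation p = 0.1, adjusted p = 0.167 over the 5 pairs). Their gene models differ in length, with 2477 nucleotides for DUSP5 and 3627 for DUSP6. With the length trend removed DUSP5 stood at 0.04 and DUSP6 at -0.11. The ratio of DUSP4 to DUSP6 overlapped between groups (difference 0.08, exact permutation p = 0.2, adjusted p = 0.2). Of the 7 other MAP kinase phosphatase genes tested, 2 had an unadjusted p under 0.05, against 3697 of 15173 tested genes. The 7 gave no call with edgeR or DESeq2 and had a median log2 fold change of -0.15. DUSP1, an early response phosphatase of the stress kinases and ERK, was the most abundant of these in CPM, with 102 ± 0.841 CPM with DMSO and 89.4 ± 6.61 with apigenin (log2 fold change -0.19 ± 0.065, adjusted p = 0.0929).

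The Sprouty and SPRED genes did not pass either. SPRY4 (chromosome 5, 142310430 to 142325021), an inhibitor of receptor tyrosine kinase signalling, had 20.7, 22.9 and 23.2 CPM with DMSO and 17.6, 19.5 and 20.3 with apigenin. Each apigenin library was below each DMSO library, by a margin smaller than the range within either group (log2 fold change -0.22 ± 0.094, 95% interval -0.42 to -0.02 before adjustment for multiple tests; edgeR adjusted p = 0.166). It was the largest difference among the 8 genes not called. SPRY2 (chromosome 13, 80335976 to 80341126), its relative, had 12.2, 13.6 and 13.6 CPM with DMSO and 13.1, 13.9 and 13.9 with apigenin (0.06 ± 0.104, -0.17 to 0.28; adjusted p = 0.796), and its groups overlapped. SPRED1 (chromosome 15, 38252836 to 38357249), which brings neurofibromin to the plasma membrane to act on RAS, had 116, 116 and 122 CPM with DMSO and 115, 117 and 106 with apigenin (-0.06 ± 0.061, -0.19 to 0.07; adjusted p = 0.557). Apigenin 3 was the lowest of the 6 libraries for it.

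The ratio of SPRY2 to SPRY4 was steady among DMSO libraries and higher in each apigenin library. In FPKM it was 1.22, 1.22 and 1.21 with DMSO and 1.54, 1.48 and 1.41 with apigenin (difference of the log2 ratio 0.28, exact two-sided permutation p = 0.1, adjusted p = 0.167 over the 5 pairs). Their gene models differ in length, with 3464 nucleotides for SPRY2 and 7161 for SPRY4, and the apigenin libraries differed in their slope of fold change on gene length. With that slope removed SPRY4 stood at -0.13 and SPRY2 at 0.03. Of 3 relatives tested, 2 had an unadjusted p under 0.05, against 3697 of 15173 tested genes. Among the 3, edgeR called none and DESeq2 called SPRY1 lower. SPRY1 had -0.25 ± 0.076 (adjusted p = 0.0583) and SPRED2 -0.21 ± 0.079 (adjusted p = 0.124), each lower in every apigenin library than in every DMSO library. SPRED3 had -0.12 ± 0.264, and SPRY3 had too few reads to be tested.

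**Figure D3:**
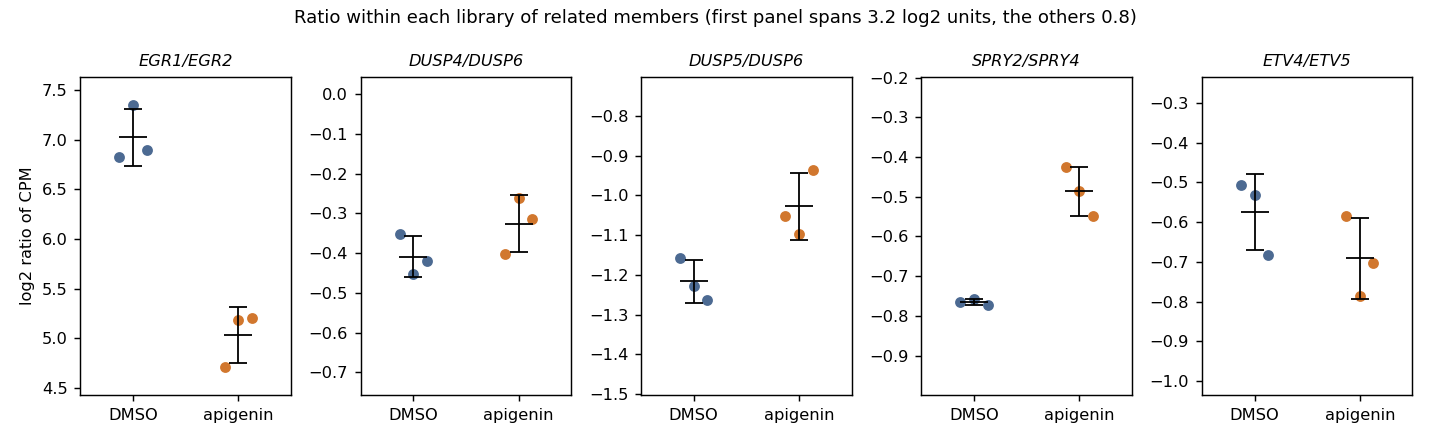
Log2 ratio of CPM within each library (vertical axis) for the 5 pairs of related genes, with DMSO in blue and apigenin in orange, points for replicates 1, 2 and 3 from left to right and bars for the mean ± SD. The EGR1 to EGR2 ratio drops from 7.02 to 5.03, and the DUSP5 to DUSP6 and SPRY2 to SPRY4 ratios lie higher in every apigenin library; the ranges of the axes differ.

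ETV4 and ETV5, ETS factors of the PEA3 group, were not called. ETV4 (chromosome 17, 43527846 to 43546340) had 51.5, 51.7 and 49.4 CPM with DMSO and 49.5, 44.3 and 45.9 with apigenin (log2 fold change -0.13 ± 0.070, 95% interval -0.28 to 0.02; edgeR adjusted p = 0.289). Its groups overlapped through apigenin 1. With the length trend removed ETV4 stood at -0.18 (edgeR adjusted p = 0.0727), still not called. ETV4 shares 16954 bases of its locus with DHX8, a helicase gene at 82.4 CPM with DMSO and 81.9 with apigenin. The use of strand in counting is not stated, so reads where they overlap cannot be assigned with certainty. ETV5 (chromosome 3, 186046314 to 186109089) had 73.1, 74.6 and 79.3 CPM with DMSO and 74.3, 76.5 and 74.7 with apigenin (-0.01 ± 0.062, -0.14 to 0.12; adjusted p = 0.942). Its locus holds the long non-coding genes ETV5-AS1 and LOC124909470, so the same limit applies. The ratio of ETV4 to ETV5 overlapped between groups (difference -0.12, exact permutation p = 0.2, adjusted p = 0.2). ETV1, the other PEA3 factor, had -0.57 ± 0.168 (adjusted p = 0.0545), with overlapping groups. Of 7 other ETS and SRF factor genes tested, ETV1 among them, 4 had an unadjusted p under 0.05, against 3697 of 15173 tested genes. Among the 7, edgeR called none and DESeq2 called ETV1 lower.

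Across the 8 genes that were not called, the 95% intervals of the fold reached down to 0.746 (SPRY4) and up to 1.21 (SPRY2). For each gene, differences within its own, narrower interval were not excluded. Over the 10 genes, the groups did not overlap for 2 that were higher with apigenin (EGR2 and DUSP5) and 3 that were lower (EGR1, DUSP6 and SPRY4). Among all tested genes such separation was common, with 14.4% higher and 14.9% lower. Among DMSO libraries the coefficient of variation was lowest for EGR1 (0.693%) and DUSP6 (1.44%). It was 4.66% for DUSP4, which was also abundant, and 18.5% for EGR2. With apigenin it was 2.88% for EGR1, 4.16% for DUSP6, 6.48% for DUSP4 and 18.4% for EGR2.

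**Figure D4:**
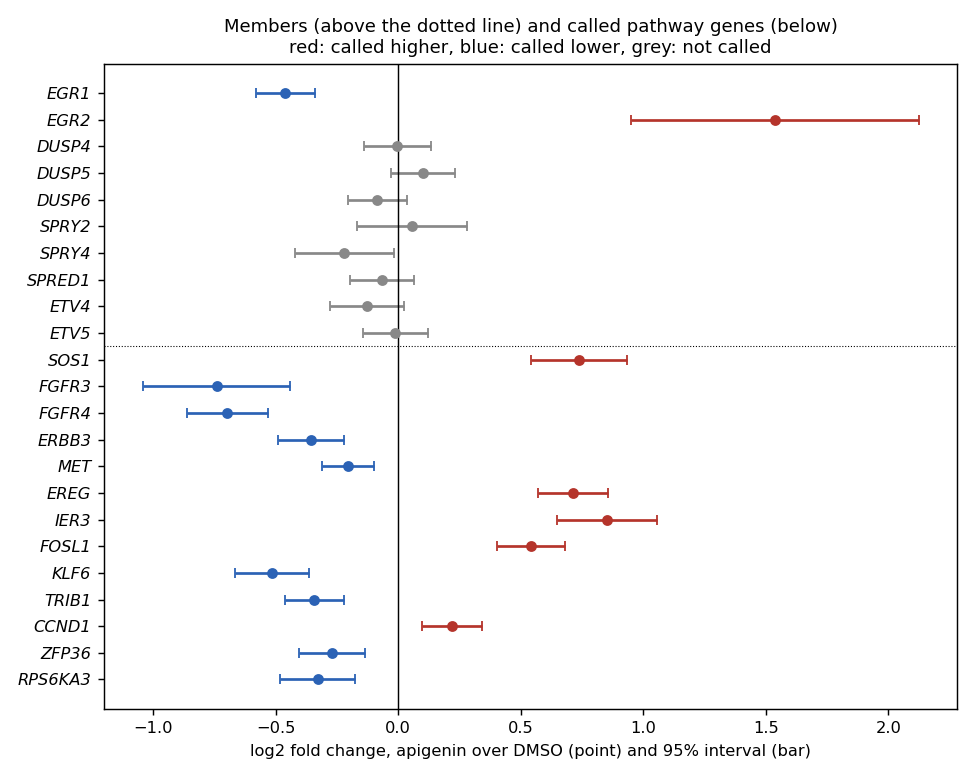
Log2 fold changes of apigenin over DMSO (horizontal axis; point, with the 95% interval as a bar) for the 10 genes and, below the dotted line, for the called genes of the pathway lists. Red marks genes called higher, blue genes called lower and grey genes not called; EGR1 at -0.46 and EGR2 at 1.54 stand apart from the other 8, whose values run from -0.22 to 0.10.

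Of 84 further genes of the pathway in 8 lists, 79 were tested, of which 5 rose (6.33%) and 8 fell (10.1%), against 2.76% and 4.22% of all tested genes, with a median log2 fold change of -0.10 beside 0.00. The lists were chosen with earlier results known, so these shares are a description. The receptors that feed RAS gave 4 falls among 8 tested and no rise. FGFR4, a fibroblast growth factor receptor prominent in liver, had 55.9, 63.9 and 56.2 CPM with DMSO and 38.6, 35.3 and 34.8 with apigenin (-0.70 ± 0.078, edgeR adjusted p = 1.37e-04). FGFR3 fell by 0.74 ± 0.140 on the log2 scale (adjusted p = 0.00671), ERBB3, a partner of the EGF receptor, by 0.35 ± 0.063 (adjusted p = 0.00472) and MET, the receptor of hepatocyte growth factor, by 0.20 ± 0.050 (adjusted p = 0.0274). MET was not called once DMSO 1, 2 or 3 or apigenin 1 was left out, FGFR3 once DMSO 2 or apigenin 1 was, and ERBB3 once DMSO 1 was (highest adjusted p over all settings 0.336, 0.121 and 0.0711). Leaving out DMSO 1, DMSO 2 or apigenin 1 left 2 receptors lower. The receptor EGFR had -0.27 ± 0.088 (edgeR adjusted p = 0.0806), and DESeq2 called it lower.

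Among receptor ligands, 1 of 7 tested was called. EREG, which encodes the EGF receptor ligand epiregulin, had 53.3, 56.1 and 57.0 CPM with DMSO and 85.2, 96.0 and 91.7 with apigenin (0.71 ± 0.067, edgeR adjusted p = 3.04e-05), a clear separation. AREG, its neighbour in the genome and also a ligand of that receptor, had 0.10 ± 0.117. In the cascade from adaptors to ERK, 1 of 21 genes was called, the RAS exchange factor gene SOS1. It had 92.3, 85.3 and 85.1 CPM with DMSO and 141, 170 and 126 with apigenin (0.74 ± 0.091, adjusted p = 3.43e-04). The genes of RAS, RAF and MEK proteins themselves were not called by edgeR. Of the 21, 10 had an unadjusted p under 0.05, against 3697 of 15173 tested genes. DESeq2 called 3 of the 21 lower, among them KSR1 and NF1. MAP2K1, which encodes a MEK, had 0.16 ± 0.064. Without apigenin 2, 3 genes of the cascade were called higher.

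Other genes read as ERK output moved both ways with edgeR, with 3 higher (13%), 4 lower (17.4%) and 16 not called among 23 tested. DESeq2 called 3 higher and 6 lower, with BTG2 and MCL1 added to those lower. IER3, an early response gene and survival factor, had 30.6, 31.9 and 29.1 CPM with DMSO and 53.2, 48.5 and 63.9 with apigenin (0.85 ± 0.094, edgeR adjusted p = 1.35e-04). FOSL1, an AP-1 factor stabilised by ERK, had 56.8, 55.8 and 53.0 CPM with DMSO and 81.0, 77.1 and 83.1 with apigenin (0.54 ± 0.064, adjusted p = 2.60e-04). Both were higher in every apigenin library. KLF6, a zinc finger factor, fell by 0.52 ± 0.071 and TRIB1, a pseudokinase that acts on MEK and on protein degradation, by 0.34 ± 0.056 on the log2 scale. The other 3 called genes, named after their values were seen, were the cyclin gene CCND1 (0.22 ± 0.057), the mRNA decay factor gene ZFP36 (-0.27 ± 0.063) and the ERK-activated kinase gene RPS6KA3 (-0.33 ± 0.072). For each of these 3, leaving out any of DMSO 1, DMSO 2, DMSO 3 and apigenin 1 ended the call (highest adjusted p over all settings 0.197, 0.143 and 0.164). Without any 1 of those 4 libraries, 2 genes of the list were lower and 2 were higher. PHLDA1 (-0.07 ± 0.050), EPHA2 (-0.10 ± 0.062) and EPHA4 (-0.21 ± 0.520, at 0.632 CPM with DMSO) were not called. They are often listed with DUSP4, DUSP6, SPRY2, SPRY4, ETV4 and ETV5 as a readout of MAPK activity. CCND1, which was called higher, belongs to the same readout. Among the 66 further pathway genes with a promoter window, a CArG box was found for SRF and RPS6KA2. SRF itself had 41.2 ± 2.9 CPM with DMSO and 41.1 ± 1.85 with apigenin (-0.01 ± 0.076).

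Among 10703 genes averaging at least 5 CPM, the 3 whose values over the 6 libraries lay closest to EGR1 were DNAJC22, VSIG1 and FAM102B. Their root mean square differences from EGR1 were 0.0203, 0.0239 and 0.0301 log2 units, and their log2 fold changes -0.48, -0.46 and -0.44. For DUSP6 they were ARF3, METAP1 and GINS4 (0.00985, 0.0133 and 0.0138 log2 units), none of them called.

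Libraries held 33882145 to 37983636 counts, so that 3 counts, the limit that 0 reads allow, correspond to 0.079 to 0.0885 CPM, counting error only. Fold changes fell with gene length (Spearman correlation -0.36, taken across genes, which do not count as replicates), with a slope per doubling of length of -0.07, -0.02 and -0.15 log2 units in apigenin 1, 2 and 3 against the DMSO mean. Removing it moved SPRED1, of 8892 nucleotides, from -0.06 to 0.06 and DUSP4, of 7273, from 0.00 to 0.09, both still not called. All 10 markers of liver cancer cells averaged at least 1 CPM, among them KRT8, KRT18, HNF4A, ALB and AFP. They summed to 3749 to 3824 CPM with DMSO and 3267 to 3745 with apigenin, and ALB, APOB and SERPINA1 fell. Markers of fibroblasts summed to 23.8 to 25.9 CPM with DMSO and 29.2 to 31.8 with apigenin, nearly all from LUM, which rose, with COL1A1 under 1 CPM. Immune markers (87.2 to 94.4 and 85.4 to 94.6 CPM) came almost wholly from CD68, with PTPRC near 0 and CD3E at 0 reads with DMSO. Endothelial markers (105 to 110 and 87.3 to 96.3 CPM) came from KDR and PECAM1, with VWF under 1 CPM and CDH5 and TEK near 0. Their part in the changes of EGR1 and EGR2 was not tested, and in such bulk samples fewer cells of a kind and less RNA per cell cannot be told apart.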

How the data were processed

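Per the labels' protocols, total RNA was isolated with TRIzol and libraries were prepared with a VAHTS Universal V6 kit. The submitters' processing notes name fastp, HISAT2, HTSeq and the GRCh38 (hg38) build, without versions or a strand setting. The authors deposited raw read counts by gene symbol and FPKM values. The deposited FPKM match, within a relative tolerance of 0.0001 for 100% of genes, the count divided by library total and a fixed gene length, which gave the gene lengths.

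Counts were compared with edgeR 4.0.16 (R 4.3.3; quasi-likelihood test, TMM factors, default filter, adjustment over 15173 genes at 0.05). The SE is the log2 fold change over the root of F, and 95% intervals use the fit's degrees of freedom. Ratios of 5 gene pairs were compared by exact permutation on log2 CPM (prior count 0.5). The other settings were DESeq2 1.42.0, limma 3.58.1 on log2(FPKM + 1) and log2(FPKM + 0.1) for genes reaching 0.5 FPKM in 3 libraries, the former also unfiltered, other factors and filters, removal of the length trend (lowess, span 0.3), the replicate number as a block and each library left out. The edgeR fit and the removal of the length trend were run on simulated counts. Limma was run on simulated CPM without a length trend, unlike the FPKM of the settings above. Outcomes of these runs are not reported here.

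The 10 genes, the pathway lists and the tests were chosen with earlier results of these data known. Named are the 10 genes, up to 4 called genes per list (those averaging at least 1 CPM, by size of change), and the 3 genes most like EGR1 and DUSP6. The values of 1 listed gene are not reported here. Positions and promoter sequences are from RefSeq GRCh38.p14, in which all 10 symbols matched and 6 had a promoter window. Replicates were not copies: between libraries of 1 group, chi-square per degree of freedom was 4.35 to 27.5.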

Additional observations from a re-analysis of the deposited data

How the results depend on the processing

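The fall of EGR1 passed under all 16 other settings and the rise of EGR2 under 15, with adjusted p of up to 0.0138 and 0.064. Some of these settings had filters that EGR2 passed only with its apigenin libraries. The other 8 of the 10 genes were called under none of the 16. With limma on log2(FPKM + 1) and no filter, 0 of the 10 rose, 78 genes in all rose and 60 fell, 0 genes of the RAS to ERK cascade rose, 1 receptor fell and 1 ERK output gene fell. Over all genes, 419 rose and 641 fell. DESeq2 gave 658 higher, no filter 865 higher and 1096 lower, and the length trend removed 685 higher, with 7 ERK output genes lower. Limma on log2(FPKM + 1) gave 352 higher and 303 lower and on log2(FPKM + 0.1) 336 and 289, so that 53.7% and 53.8% of calls were higher against 39.5% on the counts. Leaving out 1 library gave 103 to 1344 higher and 157 to 1546 lower, the most without apigenin 2. It gave 1 to 3 genes of the cascade higher, 2 to 6 receptors lower and 2 to 6 ERK output genes lower. The sign of changes near 0 was not stable: DUSP4 went to 0.0018 with upper quartile factors and to 0.085 with the length trend removed, and ran from -0.060 to 0.031 with 1 library left out. SPRED1 went to 0.055 with the length trend removed, and ETV5 ran from -0.035 to 0.022 with 1 library left out, above 0 without DMSO 3. The cause was not tested. The 5 gene pair ratios kept their sign under the 8 settings tried for them. Removal of the length trend was not among these settings. Replicate numbers did not pair the samples: deviations of same-numbered libraries had correlations of -0.02, -0.02 and -0.05 across genes, and no DMSO library correlated best with its own number. With the replicate block 455 genes rose and 776 fell, with EGR1 at -0.46 and EGR2 at 1.54, both called. Depth limits EGR2, which rests on 33 to 134 reads a library.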
